A study of Mus musculus with 42 samples.

Results

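The position of the clustered histone genes relative to lamina-associated domains (LADs) was examined in liver LMNB1 ChIP-seq from 14 mice. Members were taken by symbol: 67 genes, out of 21938 annotated as protein-coding on the nuclear chromosomes in GENCODE vM21, have a symbol that begins with Hist1, Hist2, Hist3 or Hist4. LMNB1 (lamin B1) is a protein of the nuclear lamina, and a LAD is a stretch of the genome found enriched in LMNB1 ChIP over input. One library was made per mouse, from 2 mice at each of 7 time points. All mice were wild-type C57Bl/6 with no transgene named, and liver pieces were snap-frozen. They were housed in cycles of 12 h light and 12 h dark. Non-synchronized (NS) mice had free access to chow and were killed at noon on the day before food was withdrawn. The mice of the other 6 groups had been kept without chow for 24 h and then refed from circadian time 0 (CT0), which resets the liver clock. They were collected at CT0, CT6, CT12, CT18, CT24 and CT30, that is 0, 6, 12, 18, 24 and 30 h after the start of refeeding. CT0 was at 6 am, when the lights came on, so NS and CT0 differ in time of day as well as in fasting. The study's methods describe male animals, whereas fields of the labels give the sex both as female and as male, and the age was not given in the sources used here. The files hold only the start and end of each LAD, so the labelled tissue could not be checked against liver marker genes, and neither the read depth nor a counting error is known.

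Canonical histone genes encode the linker histone H1 and the core histones H2A, H2B, H3 and H4, which package newly made DNA. Most of them are transcribed mainly in S phase from nuclear bodies that form on the gene clusters, and their mRNAs end in a stem-loop in place of a poly(A) tail. Adult liver cells divide rarely. LADs lie largely at the nuclear periphery and hold few and weakly transcribed genes, and among the genes found in them are large families of olfactory (Olfr) and vomeronasal (Vmn1r) receptors, which are expressed in sensory neurons.

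The 67 genes formed 5 groups on 4 chromosomes when members more than 500 kb apart were separated. Chromosome 13 held 54 of them. Sub-cluster 1 had 23 genes over 328 kb, from Hist1h2bl to Hist1h2bj (chromosome 13, 21715763 to 22043676, mm10). Sub-cluster 2 had 31 genes over 404 kb, from Hist1h4h to Hist1h2aa (chromosome 13, 23531050 to 23934851). Between them lay an interval of 1487 kb with 36 Vmn1r genes and 4 other coding genes. Vmn1r216 has overlapping entries with separate identifiers in the annotation, and each is counted here and below. The chromosome 3 cluster had 10 genes within 50.3 kb, from Hist2h2ab to Hist2h2bb (96219865 to 96270132). Chromosome 11 carried the pair Hist3h2ba and Hist3h2a, and chromosome 6 the single gene Hist4h4.

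The clusters differed in the histones they encode. Of the 6 H1 genes, 5 lay in sub-cluster 2 and 1 (Hist1h1b) in sub-cluster 1. Sub-cluster 1 was made up largely of H2A and H2B genes, with 7 and 8 members, beside 2 H3 and 5 H4 genes. Sub-cluster 2 held 6 H2A, 7 H2B, 7 H3 and 6 H4 genes, and the chromosome 3 cluster 4 H2A, 2 H2B, 3 H3 and 1 H4 genes. An H2A and an H2B gene stood head to head, with starts at most 500 bp apart, in 12 pairs, 7 of them in sub-cluster 1, 4 in sub-cluster 2 and 1 on chromosome 3. Their starts were 176 to 306 bp apart, with a median of 260 bp. No other combination of histone classes formed such a pair. The genes are short, with a median length of 539 bp against 17425 bp over all protein-coding genes.

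Promoter sequences were taken from RefSeq (GRCm38.p6), in which 67 of the 67 genes were matched by their older symbol and position and 62 had a promoter sequence. The 250 bases before the start are printed for the genes whose distance to a LAD is described most closely: the gene that came nearest to a LAD in any library (Hist1h2bj), the first gene on the other side of the receptor interval (Hist1h4h), and the genes nearest to and farthest from LADs by their median (Hist1h2aa and Hist3h2a). Capitals mark the CCAAT box (letters CCAAT), the TATA box (letters TATAAA), the octamer of H2B promoters (letters ATTTGCAT) and the cyclic AMP response element (letters TGACGTCA) on either strand, and none of these motifs contains another.
Hist1h2bj, chr13:22042948-22043197, plus strand: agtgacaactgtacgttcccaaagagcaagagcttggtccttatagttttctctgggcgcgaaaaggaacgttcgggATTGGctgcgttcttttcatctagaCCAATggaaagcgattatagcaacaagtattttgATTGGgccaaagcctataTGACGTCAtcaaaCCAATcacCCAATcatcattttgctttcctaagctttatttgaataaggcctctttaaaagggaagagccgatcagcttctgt
Hist1h4h, chr13:23530794-23531043, plus strand: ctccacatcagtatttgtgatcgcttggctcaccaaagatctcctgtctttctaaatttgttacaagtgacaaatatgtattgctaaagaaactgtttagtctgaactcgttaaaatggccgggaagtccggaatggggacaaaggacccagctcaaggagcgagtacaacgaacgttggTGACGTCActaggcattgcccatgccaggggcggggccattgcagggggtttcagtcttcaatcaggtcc
Hist1h2aa, chr13:23934187-23934436, plus strand: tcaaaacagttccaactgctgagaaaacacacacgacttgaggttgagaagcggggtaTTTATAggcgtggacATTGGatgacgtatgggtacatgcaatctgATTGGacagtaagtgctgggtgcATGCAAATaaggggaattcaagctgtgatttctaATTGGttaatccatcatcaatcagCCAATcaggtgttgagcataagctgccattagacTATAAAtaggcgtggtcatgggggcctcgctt
Hist3h2a, chr11:58954435-58954684, plus strand: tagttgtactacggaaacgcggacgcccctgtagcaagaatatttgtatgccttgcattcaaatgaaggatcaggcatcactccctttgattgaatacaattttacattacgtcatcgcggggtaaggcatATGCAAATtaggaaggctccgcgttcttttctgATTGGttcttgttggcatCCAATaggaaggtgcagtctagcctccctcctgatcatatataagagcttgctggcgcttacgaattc

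The Hist1h2bj sequence is also the promoter of its head-to-head partner Hist1h2ag, and held 5 CCAAT motifs and 1 cyclic AMP response element. The Hist1h2aa sequence is shared with Hist1h2ba and held 4 CCAAT motifs, 2 TATAAA motifs and 1 octamer. The Hist3h2a sequence held 2 CCAAT motifs and 1 octamer, and the Hist1h4h sequence 1 cyclic AMP response element and no CCAAT. The 4 promoters thus differ in these letters, and all 4 genes were outside LADs in every library.

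Over the 62 histone promoters, CCAAT was found in 51 (82.3%), against 33.8% of the 32851 RefSeq promoter sequences of the same length. TATAAA was found in 29 (46.8% against 12.4%), the octamer in 13 (21.0% against 1.60%) and the cyclic AMP response element in 4 (6.45% against 1.55%). The 32851 sequences come from 27025 genes, some with more than 1, whereas each histone gene entered with the promoter nearest its annotated start. For 1 histone gene the RefSeq start lay over 250 bp from the annotated one, at 1770 bp. The median GC was 44.8% in the histone promoters and 52.4% in all RefSeq promoters, and the part of base composition in these shares was not tested. The classes were unlike each other. CCAAT was present in 18 of 18 H2A, 16 of 16 H2B and 6 of 6 H1 promoters, in 8 of 10 H3 promoters and in 3 of 12 H4 promoters. The octamer occurred in 7 H2A and 6 H2B promoters and in 0 of the H1, H3 and H4 promoters. Because head-to-head genes share most of these bases, their promoters are not independent of each other. A match is a description of the letters and not of a bound factor.

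**Figure D1:**
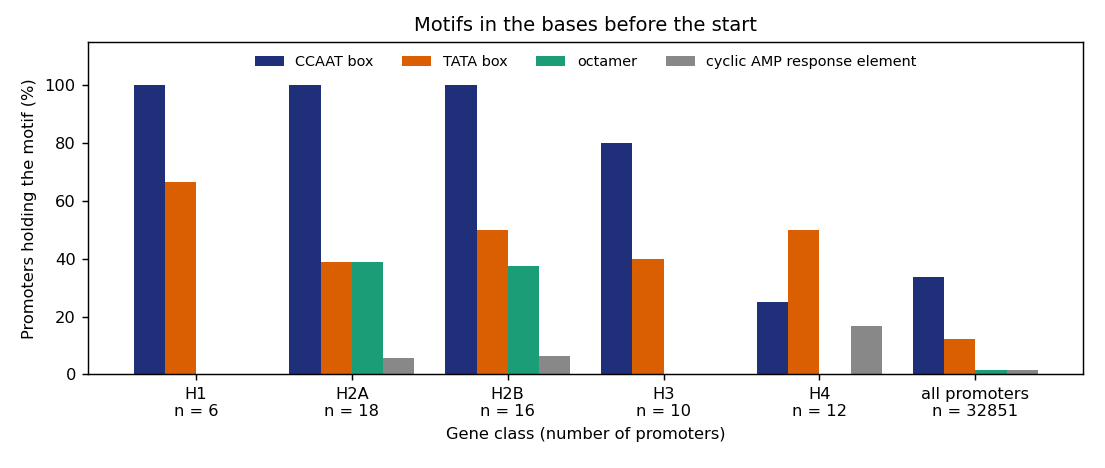
Percentage of promoters that hold each motif on either strand in the 250 bases before the RefSeq start, for the 5 histone classes and for all RefSeq promoters, with the number of promoters under each class. CCAAT was in every H1, H2A and H2B promoter shown and in 25% of the H4 promoters, and the octamer was found only in the H2A and H2B classes among the histone promoters.

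The LADs differed widely between libraries, from 86 to 341 per library (median 185) and from 335 to 663 Mb covered. The LAD starts of a library lie on a grid whose step, called the bin size here, ran from 4 to 61 kb and was above 30 kb in 5 libraries (NS replicate 1, CT0 replicate 1, CT6 replicate 1 and both CT30 libraries). The number of LADs on chromosome 13 ranged from 2 to 16 and on chromosome 3 from 5 to 25. Replicates are separate mice. The tests between time points set differences against the spread between mice, which also holds differences in bin size. Tests of differences within a library run over all 14 libraries, so their spread also holds time point, fasting and bin size.

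No histone gene lay in a LAD in any library. The transcription start site (TSS) was outside LADs for 67 of 67 genes in each of the 14 libraries, and so 0 genes had a TSS in a LAD in at least 1 library, against 16.7% of all protein-coding genes. Of all genes, 4.02% and 7.97% had their TSS in a LAD in NS replicates 1 and 2, 5.25% and 8.19% at CT0, 6.92% and 9.89% at CT6, and 8.10% and 9.43% at CT12. The shares were 9.28% and 10.4% at CT18, 8.99% and 7.88% at CT24, and 6.16% and 5.58% at CT30, and 0.830% of all genes were in a LAD in all 14 libraries. The count for the histone genes was 0 in every class, for the 6 H1, 18 H2A, 18 H2B, 12 H3 and 13 H4 genes. It was also 0 when any overlap with the gene body counted, with LADs of at least 1 Mb only, with the union of both mice of a time point and without the libraries of bin size above 30 kb. The 67 genes share 5 positions in the genome, so these counts are not 67 separate observations.

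The coding genes that sit within the spans of the chromosome 13 sub-clusters without being histone genes were outside LADs as well, 9 of 9 in every library. These were Zfp184, Pom121l2 and Prss16 in sub-cluster 1, and Hfe, Trim38 and the solute carrier genes Slc17a1, Slc17a2, Slc17a3 and Slc17a4 in sub-cluster 2. Hfe encodes a regulator of hepatic iron sensing. Of the 44 coding genes within 2 Mb of the sub-clusters that are neither histone nor receptor genes, 2 had their TSS in a LAD, each in 1 library (Gpr141 in CT24 replicate 1 and Nrsn1 in CT18 replicate 2). Over all protein-coding genes, 16.7% had their TSS in a LAD in at least 1 library. The neighbours lie close together, so these counts are not separate observations.

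Distance to the nearest LAD was measured from the gene body. Pooled over the 67 genes and the 14 libraries, the median distance was 3505 kb, beside 4163 kb for all protein-coding genes. For sub-cluster 1, the median distance of its 23 genes was 43542 and 4107 kb in NS replicates 1 and 2, 48099.8 and 3615 kb at CT0, and 3516 and 288 kb at CT6. It was 3117 and 3721 kb at CT12, 4697 and 537 kb at CT18, 1711 and 3735 kb at CT24, and 38971 and 39023 kb at CT30. Both CT30 mice, NS replicate 1 and CT0 replicate 1 were thus far above the other 10 libraries, none of which exceeded 4697 kb. Their bin sizes were 31 and 46 kb at CT30, 61 kb in NS replicate 1 and 47 kb in CT0 replicate 1, whereas CT6 replicate 1, with 35 kb, was among the lower 10, and the part of bin size in the distances was not tested.

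Sub-cluster 2 showed the same division of libraries. The median distance of its 31 genes was 41708 and 2273 kb in NS, 46266 and 1781 kb at CT0, and 1682 and 499 kb at CT6. At CT12 it was 1892 and 1887 kb, at CT18 2863 and 539 kb, at CT24 1913 and 1901 kb, and at CT30 37137 and 37189 kb. Replicates lay within 12 kb of each other at CT12 and CT24 and within 52 kb at CT30, whereas they differed 18.3-fold in NS and 26.0-fold at CT0.

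**Figure D2:**
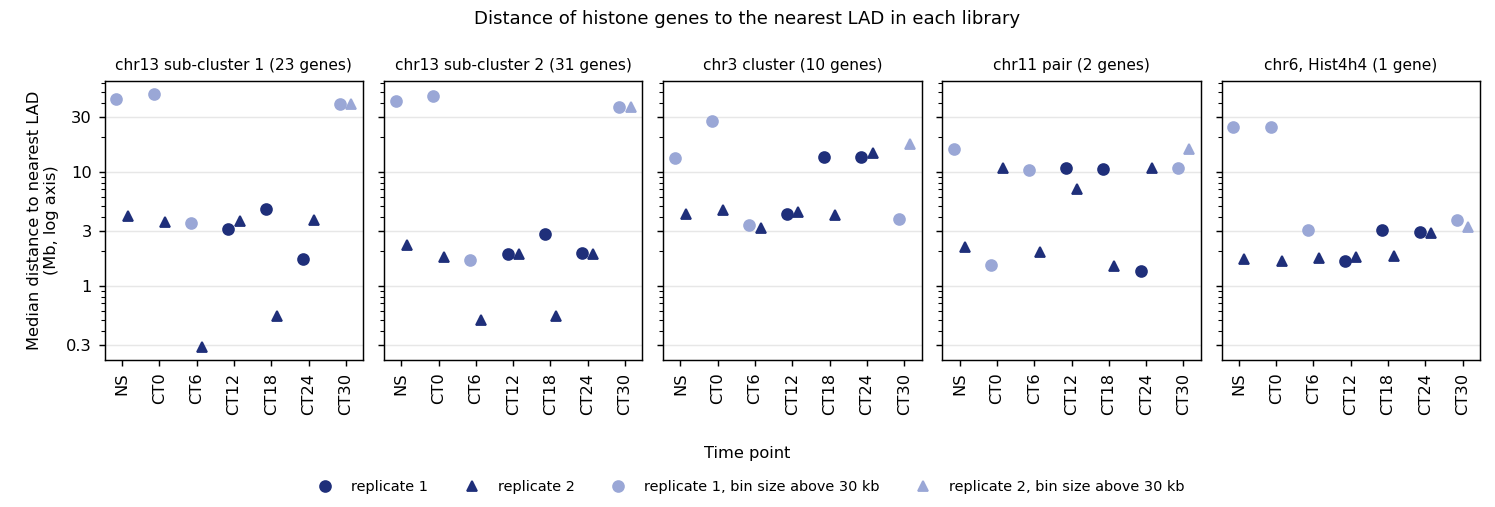
Median distance to the nearest LAD over the genes of each histone cluster (Mb, log axis) in each library, by time point, with circles for replicate 1, triangles for replicate 2 and pale symbols for libraries of bin size above 30 kb. On chromosome 13 the 4 highest points are pale symbols between 37137 and 48099.8 kb, and the 2 lowest are CT6 replicate 2 and CT18 replicate 2.

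Sub-cluster 1 was farther from a LAD than sub-cluster 2 in 11 of 14 libraries, by 1367 ± 833 kb on average (SD, n = 14; exact two-sided sign-flip permutation test, p = 0.000977, adjusted over 3 tests p = 0.00293). This difference is largely set by the map. In 10 libraries all genes of both sub-clusters had the same nearest LAD beyond sub-cluster 2, and there the difference was 1833 kb, which is the spacing of the sub-clusters' middle genes. The p thus rests mainly on this fixed spacing and not on a spread between mice. The LAD nearest to both lay between them in 2 libraries, and in the other 2 the sub-clusters had different nearest LADs. The 3 libraries with the opposite sign were CT6 replicate 2 (-211 kb), CT18 replicate 2 (-1.84 kb) and CT24 replicate 1 (-202 kb). With the libraries numbered replicate 2 by their titles the difference was 1279 kb and did not pass the threshold (exact permutation p = 0.0625).

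The LAD beyond sub-cluster 2 was present within 5000 kb of Hist1h2aa in 10 of 14 libraries, at 1235 to 2551 kb from that gene with a median of 1578 kb. It covered 1045 to 2870 kb and contained the TSS of 12 to 23 genes of the prolactin family (Prl), hormone genes expressed mainly in pituitary and placenta, together with Hdgfl1. It was called in both mice at CT6, CT12, CT18 and CT24 and in replicate 2 only in NS and at CT0. The libraries without it were NS replicate 1, CT0 replicate 1 and both CT30 libraries, in which the next LAD lay 36825 to 45954 kb from Hist1h2aa. Bin sizes were 31 to 61 kb in the libraries without this LAD and 4 to 35 kb in those with it.

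Receptor genes next to the histone genes entered a LAD in only 2 libraries. In CT6 replicate 2 a LAD of 1045 kb (chromosome 13, 22077001 to 23122000) covered 70.3% of the interval between the sub-clusters and the TSS of 30 of its 36 Vmn1r genes, from Vmn1r188 to Vmn1r217. In CT18 replicate 2 a LAD of 756 kb (22326001 to 23082000) covered 50.8% of it and the TSS of 18 Vmn1r genes, from Vmn1r198 to Vmn1r215. Both LADs ended short of the histone genes on either side. The other replicate at CT6 and CT18 had no LAD there, nor did the other 10 libraries. Bin sizes were 11 kb in CT6 replicate 2 and 6 kb in CT18 replicate 2, against 35 and 19 kb in their replicates, and the part of bin size in this difference was not tested.

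**Figure D3:**
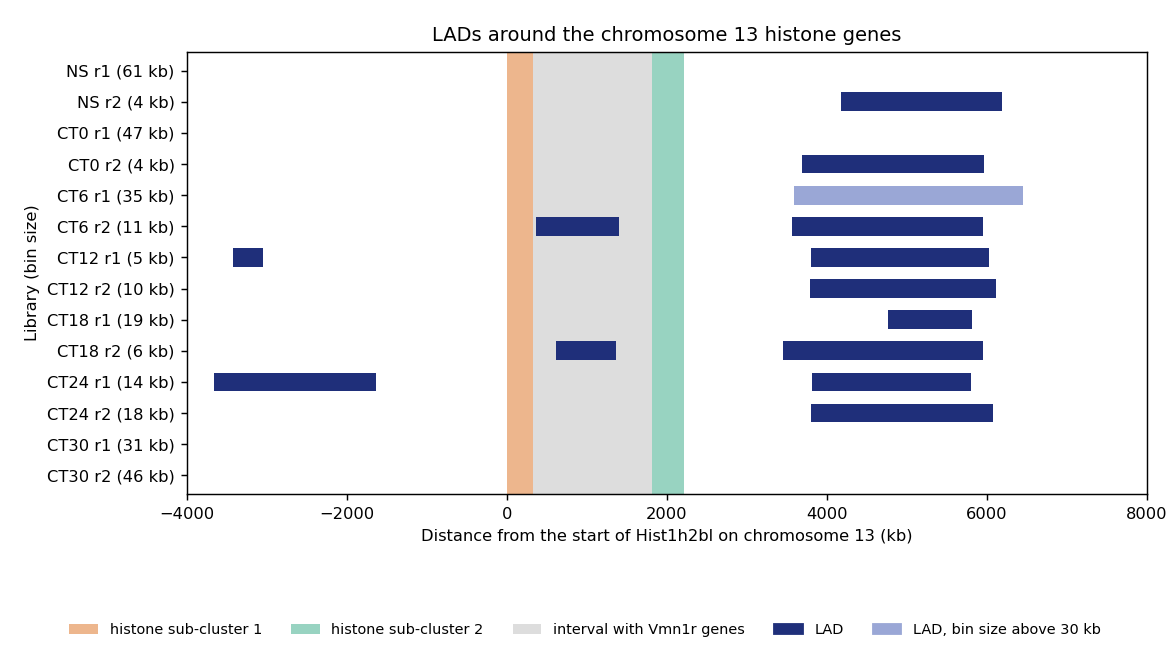
LADs (bars) in each of the 14 libraries from 4000 kb before to 8000 kb after the start of Hist1h2bl on chromosome 13, with the bin size of each library on the vertical axis and the histone sub-clusters and the interval between them shaded. LADs lie in the interval only in CT6 replicate 2 and CT18 replicate 2, no LAD touches a sub-cluster, and the LAD beyond sub-cluster 2 is missing in 4 libraries.

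The edge of the CT6 replicate 2 LAD lay 33.3 kb from Hist1h2bj, the last gene of sub-cluster 1, and this was the smallest distance of any histone gene in any library. It equals about 3.03 bins of that library. The neighbours Hist1h2ag, Hist1h4i, Hist1h2bk and Hist1h2ah were 34.1, 35.6, 40.7 and 41.4 kb away, and the first gene of the sub-cluster, Hist1h2bl, 361 kb. On the other side, Hist1h4h, the first gene of sub-cluster 2, was 409 kb from the same LAD and Hist1h2aa 812 kb. In CT18 replicate 2 the gaps were 282 kb to Hist1h2bj and 449 kb to Hist1h4h. Vmn1r188, the receptor gene nearest to Hist1h2bj, was inside the LAD in CT6 replicate 2 only, while Vmn1r223, the receptor gene nearest to Hist1h4h, was in no LAD in any library. The non-receptor genes at that edge, from Zfp322a to the butyrophilin gene Btn2a2, were also outside LADs in all 14 libraries.

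**Figure D4:**
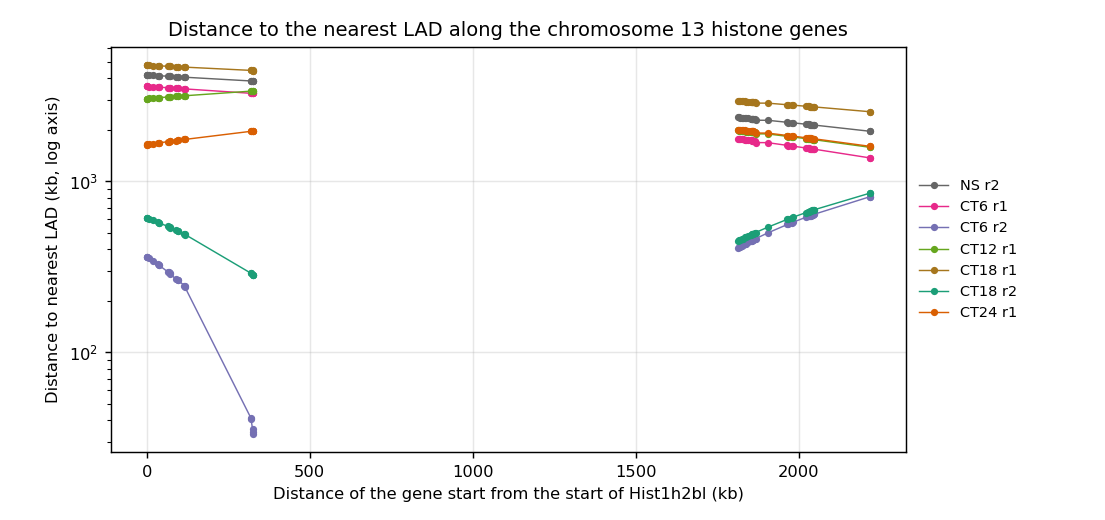
Distance to the nearest LAD (kb, log axis) of each chromosome 13 histone gene against its distance from the start of Hist1h2bl (kb) in 7 libraries, with 1 point per gene and lines joining the genes of a sub-cluster. In CT6 replicate 2 and CT18 replicate 2 the distance falls toward the interval from both sides, reaching 33.3 kb at Hist1h2bj in CT6 replicate 2. In the other libraries shown distances are larger, and the lines look flatter on the log axis only. From Hist1h2bl to Hist1h2bj the distance went from 361 to 33.3 kb in CT6 replicate 2. It went from 4180 to 3852 kb in NS replicate 2, about the same step in kb.

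In the window of 2 Mb around the sub-clusters, 49 receptor genes comprised the 36 Vmn1r genes and 13 Olfr genes before sub-cluster 1. The 13 Olfr genes, which included Olfr1359 next to Hist1h2bl, were outside LADs in every library. The share of the 49 receptor genes with a TSS in a LAD was 61.2% in CT6 replicate 2, 36.7% in CT18 replicate 2 and 0% in the other 12 libraries. It exceeded that of the chromosome 13 histone genes by 7.00 ± 18.4 percentage points on average (SD, n = 14). Only 2 libraries differed from 0, for which an exact sign-flip test cannot give a p below 0.5, so that test says nothing of the difference. Elsewhere in the genome, 173 Vmn1r genes had 13.3% to 64.7% of their TSS in LADs per library, with a median of 54.3%, and 1122 Olfr genes 5.08% to 68.9%, with a median of 59.9%. The share of the Vmn1r genes between the sub-clusters was 83.3% in CT6 replicate 2, beside 56.6% of Vmn1r genes elsewhere, and 50% in CT18 replicate 2, beside 56.1%. It was 0% in the other 12 libraries, where 13.3% to 64.7% of Vmn1r genes elsewhere were in LADs.

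**Figure D5:**
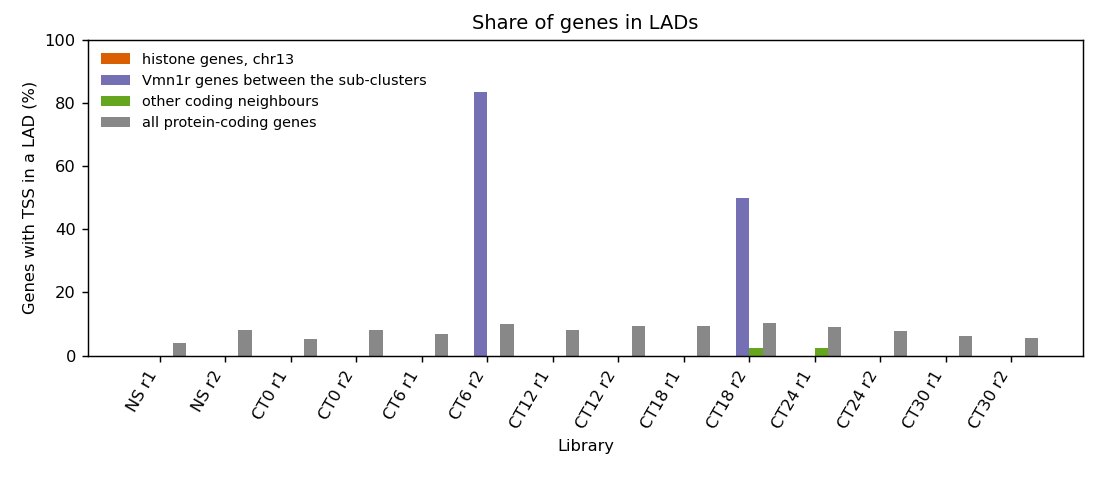
Percentage of genes with their TSS in a LAD in each library, for the histone genes of chromosome 13, the 36 Vmn1r genes between the sub-clusters, the 44 other coding neighbours and all protein-coding genes. The histone bars are at 0 in all 14 libraries, and the Vmn1r bars rise above 0 only in CT6 replicate 2 (83.3%) and CT18 replicate 2 (50%).

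The chromosome 3 cluster, with 10 genes within 50.3 kb, stayed at least 3193 kb from LADs in every library. Its median distance was 13191 and 4271 kb in NS, 27931 and 4635 kb at CT0, 3423 and 3216 kb at CT6, and 4238 and 4463 kb at CT12. It was 13558 and 4197 kb at CT18, 13503 and 14439 kb at CT24, and 3832 and 17607 kb at CT30. The lowest value, 3216 kb, was above the lowest of either chromosome 13 sub-cluster, 288 and 499 kb. In 8 libraries the nearest LAD lay before Hist2h2ab, and in 6 it lay after Hist2h2bb at more than 10000 kb. Replicates were 1.05-fold to 1.07-fold apart at CT6, CT12 and CT24 and differed 3.09-fold or more at the other time points.

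The median distance of the 54 chromosome 13 histone genes was lower than that of the chromosome 3 cluster in 10 of 14 libraries, but the mean difference was 3407 ± 15057 kb in favour of a greater distance on chromosome 13 (SD, n = 14; exact two-sided sign-flip permutation test, p = 0.418, adjusted p = 0.5). The 4 libraries with the opposite sign were the ones that lacked the LAD beyond sub-cluster 2. On a log2 scale the mean difference was -0.89 (p = 0.107, exact permutation test). Without the 5 libraries of bin size above 30 kb it was -5633 kb, lower in each of 9 libraries (exact permutation p = 0.00391, the smallest that 9 libraries allow). This cut was chosen after the data were seen and takes out all 4 libraries of the opposite sign, so its p cannot decide the direction. The direction of the mean depended on the scale and on the libraries of bin size above 30 kb.

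Hist3h2a and Hist3h2ba on chromosome 11 had the greatest distances by median over libraries, 10452 and 10446 kb. Their median was 15642 and 2196 kb in NS, 1518 and 10744 kb at CT0, 10302 and 1983 kb at CT6, and 10672 and 6977 kb at CT12. It was 10597 and 1496 kb at CT18, 1342 and 10856 kb at CT24, and 10747 and 15804 kb at CT30. Values of 1342 to 2196 kb were found in 5 libraries, never in both mice of a time point. Hist4h4, the single H4 gene on chromosome 6, was at 24745 and 1716 kb in NS, 24613 and 1644 kb at CT0, 3102 and 1730 kb at CT6, and 1631 and 1776 kb at CT12. It was at 3080 and 1808 kb at CT18, 2934 and 2918 kb at CT24, and 3781 and 3264 kb at CT30, with a median of 2926 kb. Ordered by their median over the libraries, sub-cluster 2 (1907 kb) was followed by Hist4h4 (2926 kb), sub-cluster 1 (3728 kb), the chromosome 3 cluster (4549 kb) and the chromosome 11 pair (10449 kb), and the ranges of neighbours in this order overlapped.

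By histone class, distances were pooled over the genes of the class and the 14 libraries. The pooled median was 1969 kb for H1, 3763 kb for H2A, 3591 kb for H2B, 3485 kb for H3 and 3264 kb for H4. Gene by gene, medians over the libraries ran from 1766 to 3736 kb in H1 and from 1595 to 10452 kb in H2A. They ran from 1596 to 10446 kb in H2B, 1768 to 4575 kb in H3 and 1769 to 4568 kb in H4. The classes thus overlapped. Of the 6 H1 genes, 5 lie in sub-cluster 2. The first H4 gene of each cluster was also compared by its median over the libraries. It was 3781 kb for Hist1h4j in sub-cluster 1 and 1998 kb for Hist1h4h in sub-cluster 2. For Hist2h4 on chromosome 3 it was 4568 kb, and for Hist4h4 on chromosome 6 it was 2926 kb. The testis histone genes Hist1h1t, Hist1h2ba and Hist1h2aa had medians of 1833, 1596 and 1595 kb. Hist1h2ba and Hist1h2aa sit 169 kb from the rest of sub-cluster 2, on the side of the prolactin LAD, and Hist1h2aa was the histone gene nearest to LADs by this median, with a range of 812 to 45954 kb.

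Across the 6 CTs, the distance of sub-cluster 1 had an F ratio of 3.03 (exact permutation p = 0.226) and that of sub-cluster 2 an F ratio of 2.91 (exact permutation p = 0.240), both with p = 0.479 after adjustment over 4 tests. The chromosome 3 cluster had an F ratio of 0.775 (exact permutation p = 0.575, adjusted p = 0.766). The share of the receptor interval in LADs had one of 0.810 (exact permutation p = 1). Only 2 libraries, of different CTs, were above 0 there, so that test could not pass the threshold and says nothing of the interval. No difference between CTs in the distances of these clusters passed the threshold. Without CT0 replicate 2 the F ratios of the sub-clusters were 214 and 969, and with CT0 replicate 1 left out instead they were 134 and 606. Either choice leaves CT0 with a lone library and no spread of its own, so its distance enters only the differences between CTs.

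Between CT0 and NS, the mean distance was 2033 kb greater at CT0 for both sub-clusters, from 23824 ± 27885 to 25857 ± 31456 kb in sub-cluster 1 and from 21991 ± 27885 to 24024 ± 31456 kb in sub-cluster 2 (SD, n = 2 each; exact two-sided permutation p = 1). For the chromosome 3 cluster it was 7552 kb greater (exact permutation p = 0.667). With 2 mice against 2, p cannot go below 0.333, and the groups differ in time of day as well as in fasting. No histone gene had both CT0 mice closer than both NS mice or both farther, against 11.1% and 9.06% of all genes.

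Both CT12 libraries were closer to a LAD than both CT0 libraries for 10 of 67 histone genes, the 10 genes of chromosome 3, against 19.5% of all genes, and both were farther for 0, against 9.78%. Both CT30 libraries were farther than both CT12 libraries for 57 of 67 genes, all those outside chromosome 3, against 44.2% of all genes, and both were closer for 0, against 8.64%. These 57 genes stand for 4 positions in the genome. The CT30 libraries had bin sizes of 31 and 46 kb and the CT12 libraries of 5 and 10 kb, and the part of bin size in these counts was not tested.

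Genes that act on histone genes were compared from a list of 18 factors of histone transcription and mRNA processing, among them the cofactor Npat, the stem-loop binding protein Slbp and the U7 snRNP proteins Lsm10 and Lsm11. Their TSS was in a LAD in at least 1 library for 2 of 18, against 16.7% of all genes. Cpsf3, the endonuclease that cuts histone pre-mRNA, was in a LAD in NS replicate 1, CT6 replicate 2 and both CT30 libraries, and Cstf2t, a paralog of a cleavage factor subunit, in CT12 replicate 2, CT18 replicate 2 and CT24 replicate 1. Pooled over the listed genes and the libraries, the median distance was 3974 kb. Of 20 listed histone variant genes outside the clusters, 17 were found, and 1 of them, H2afb3 on the X chromosome, was in a LAD in 1 library (CT12 replicate 1). Their median distance, pooled in the same way, was 4754 kb, and 4 of them lacked a distance in libraries without a LAD on the X chromosome.

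The sequence under the clusters was read from GRCm38.p6. Sub-clusters 1 and 2 had 42.9% and 42.0% GC and 27.7% and 26.6% of bases masked as repeats, beside 41.7% GC and 36.4% masked over the nuclear chromosomes. The receptor interval had 40.6% GC and 42.8% masked bases, and the part of it in the LADs of CT6 replicate 2 and CT18 replicate 2 had 40.2% and 40.1% GC and 46.8% and 49.5% masked bases. The LAD beyond sub-cluster 2 had 37.6% to 38.3% GC, the same range as all LADs taken per library, and the LADs in the receptor interval lay above that range. Its masked share was 36.7% to 39.7%, beside 39.4% to 44.4% for all LADs per library. The clusters on chromosomes 3 and 11 had the highest GC, 46.1% and 45.7%. Coding genes numbered 79.3 and 91.6 per Mb in the sub-clusters, 26.9 per Mb in the receptor interval, 199 per Mb in the chromosome 3 cluster and 6.54 to 12.4 per Mb in the LAD beyond sub-cluster 2.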

How the data were processed

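LMNB1 ChIP-seq intervals of 14 mice were analysed. The authors removed duplicates with Picard, mapped reads to mm10 (Bowtie2 2.25.0 in the submitters' processing notes), matched the depth of ChIP and input by down-sampling per chromosome, and called LADs per mouse with EDD, with gap penalty and bin size set per library. The deposited values are the start and end of each LAD in base pairs, without score, count or signal. Replicate numbers are those of the sample titles, and the names of the deposited intervals number some NS, CT0 and CT12 libraries differently. Inputs and RNA-seq were not analysed here. No column of other per-sample values was found (0).

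A gene was in a LAD if its TSS was, and its distance was the gap between gene body and nearest LAD, 0 on overlap, with no value where a chromosome had no LAD. Clusters were split at gaps over 500 kb, and receptor neighbours taken within 2 Mb. The bin size is the largest step in kb on which all starts at whole kb lie, with 82 of 2845 starts set aside. Chromosome lengths of GRCm38.p6 were checked to hold all LADs. One value per library entered each test: sign flips over 14 libraries (16384 patterns, smallest p 0.000122 where all 14 differ from 0), the F ratio over all 10395 divisions of 12 CT libraries into 6 pairs, and 2 mice against 2, all two-sided and exact except the F ratio, which is one-sided and exact. Benjamini-Hochberg adjustment was over the 3 paired and the 4 time tests. No correlation or set test was run. Scripts used Python 3.11.15, NumPy 2.4.6 and SciPy 1.17.1, and the tests were checked on simulated data.

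The members, lists and motifs were chosen with earlier results of these data known, and the motifs after some of the promoters had been read. Named genes were the first and last of each cluster, the nearest and farthest by median, testis genes, the first H4 gene of each cluster, neighbours at the edges, and listed genes found in a LAD. The other genes named, such as those within the spans, were chosen after their values were seen. The listed variant genes (H3f3c, H2afy3 and Th2al1) had no match in the annotation.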

Additional observations from a re-analysis of the deposited data

How the results depend on the processing

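Of 107 alternatives of the cluster differences and CT comparisons, 101 kept their side of the threshold without reversing, 3 newly passed it, 1 no longer did and 3 reversed, 1 of which was among those that passed. The number of histone genes in LADs had 22 alternatives of its own and was 0 under all of these. The sub-cluster difference lay between 1332 and 1489 kb when each library was left out in turn, fell to 1279 kb (exact permutation p = 0.0625, n = 7) with replicate 2 libraries only, and was 1109 kb (exact permutation p = 0.0312, n = 9) without bin sizes above 30 kb, an alternative chosen after seeing the data. The difference of chromosome 13 from chromosome 3, 3407 kb, became -0.89 on the log2 scale, -920.4 kb with replicate 2 libraries only and -5633 kb without bin sizes above 30 kb, and ran from 1101 to 4627 kb with each library left out. The receptor difference ran from 2.83 (without CT6 replicate 2) to 7.54 percentage points with each library left out, and was 0 with replicate 1 libraries only, 13.99 with replicate 2 libraries only, 4.37 with LADs of at least 1 Mb and 10.9 without bin sizes above 30 kb. For the CTs, leaving out 1 library gave F ratios of 1.76 to 214 for sub-cluster 1 and 1.69 to 969 for sub-cluster 2. For chromosome 3 they were 0.538 to 3.66 and for the interval 0.645 to 3.79. Each such choice leaves a CT with a lone library. Of the alternatives that newly passed, 2 are of this kind, the sub-clusters without CT0 replicate 2. CT0 minus NS ran from -20210 to 24276 kb for both sub-clusters, -17685 kb without NS replicate 2, and from -4096 to 19200.1 kb for chromosome 3, values with no test. Replicate numbers, taken from the titles though other names differ for some NS, CT0 and CT12 libraries, did not pair the mice (21 pairs of time points, r from -0.12 to 0.52, 7 above 0.1), and the replicate block gave F ratios of 3.16, 3.01, 0.691 and 1, with no change of call. Depth is unknown, and with 2 mice per time point and 5 genomic positions the data limit what can be said of time. The cause of these changes was not tested.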
